A study of Mus musculus with 8 samples.

Results

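Expression of 9 genes of ganglioside and polysialic acid synthesis was followed over 8 neuroblastic tumors of LSL-MYCN;Dbh-iCre mice. The genes were taken by name, and all of their probe sets that the platform annotation gives to a single gene were used. These 9 of the 18194 genes on the array had 24 probe sets, of 34958 such probe sets in all. In these mice, human MYCN and a luciferase reading frame lie in the ROSA26 locus behind a CAG promoter and a loxP-flanked transcriptional stop. The iCre recombinase, driven by Dbh regulatory sequence, removes the stop in cells that express dopamine β-hydroxylase. All 8 tumors carried both transgenes and were untreated. Of these, 6 (tumors 1 to 6) were adrenal tumors, and the other 2 (tumors 7 and 8) arose in a superior cervical ganglion, which belongs to the sympathetic chain. The labels give neither the age of the mice nor whether the tumors are from different mice, and p-values therefore measure the spread between these tumors only. Normal adrenals were not analysed here, and levels are therefore described among the tumors alone.

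Gangliosides are sphingolipids of the outer cell membrane whose sugar chains carry sialic acid. They are built stepwise in the Golgi: St3gal5 adds sialic acid to lactosylceramide to make GM3, St8sia1 adds a further sialic acid to make GD3, and B4galnt1 adds N-acetylgalactosamine to GM3 or GD3 to make GM2 or GD2. B3galt4 then extends the chain with galactose, which leads to GM1 and GD1b, and St6galnac5 places sialic acid on the N-acetylgalactosamine of longer chains. GD2 is abundant on neuroblastoma cells and is the target of antibody treatment in patients. Polysialic acid is a long sialic acid chain that St8sia2 and St8sia4 build on the neural cell adhesion molecule, the product of Ncam1, in embryonic and migrating neural cells. St8sia3 belongs to the same enzyme family and acts on glycolipid and glycoprotein acceptors. RNA levels do not measure the enzymes' activity or their products.

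Values are log2 expression values of Affymetrix arrays, 1 array per tumor. A probe set was called detected when it lay above the 95th percentile of 83 probe sets of sensory receptor genes (olfactory, taste and vomeronasal) in the same array, a limit of 6.71 to 7.21. Noradrenergic markers were high in 7 tumors, and tumor 7 was set apart, with Gata3 below the detection limit. Of 7 such markers, 6 were detected in all tumors, and all 7 were lowest in tumor 7. The mean of these markers, centred per gene over the tumors, was -2.92 in tumor 7, against 0.20 to 0.62 elsewhere. Hepatocyte markers were highest in tumor 6 for 7 of 7 genes, with a centred mean of 5.51 against -1.02 to -0.53 elsewhere, and adrenal cortex markers were highest there for 5 of 6. Skeletal muscle markers were highest in tumor 7 for 7 of 8 genes, with a centred mean of 1.28 in tumor 7, 0.67 in tumor 8 and -0.53 to -0.11 in the adrenal tumors. The gap between the 3′ and 5′ Gapdh probe sets, a measure of RNA integrity, was 5.51 for tumor 1 and 0.47 to 1.57 for the rest. These are bulk samples, in which fewer cells of a type and less RNA per cell cannot be told apart.

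Nearly the whole set was expressed in every tumor. With the probe set of the highest mean standing for each gene, 8 of the 9 genes (88.9%) were detected in all 8 tumors, against 61.1% of the 16254 genes tested. The exception was B4galnt1, whose probe set 1418655_at was detected in 7 tumors and lay below the limit in tumor 1. Its other probe set, 1425363_at, was above the limit in tumor 1 (7.44 against 7.18) and below it in tumor 2 (6.99 against 7.21). Each tumor thus had at least 1 B4galnt1 probe set above this limit. With the limit at the 99th percentile, both B4galnt1 probe sets lay below it in tumor 1 (limit 7.57). At that limit 7 of the 9 genes were detected in all tumors, and the share of all genes is not given here. All tumors gave detection on 13 of the 24 probe sets, and no tumor did on 6. The spread over the tumors was above the median of all genes tested (SD 0.26 on the log2 scale) for 7 of the 9 genes on these probe sets, the exceptions being St3gal5 and B3galt4. St6galnac5 had the widest spread of the 9, with an SD of 0.91 (percentile 96.2 of the genes tested), followed by Ncam1 with 0.70 (percentile 92.7). The SD of St6galnac5 was 0.37 without tumor 5, and that of Ncam1 was 0.17 without tumor 7, as the plot of the 9 genes by tumor shows.

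**Figure D1:**
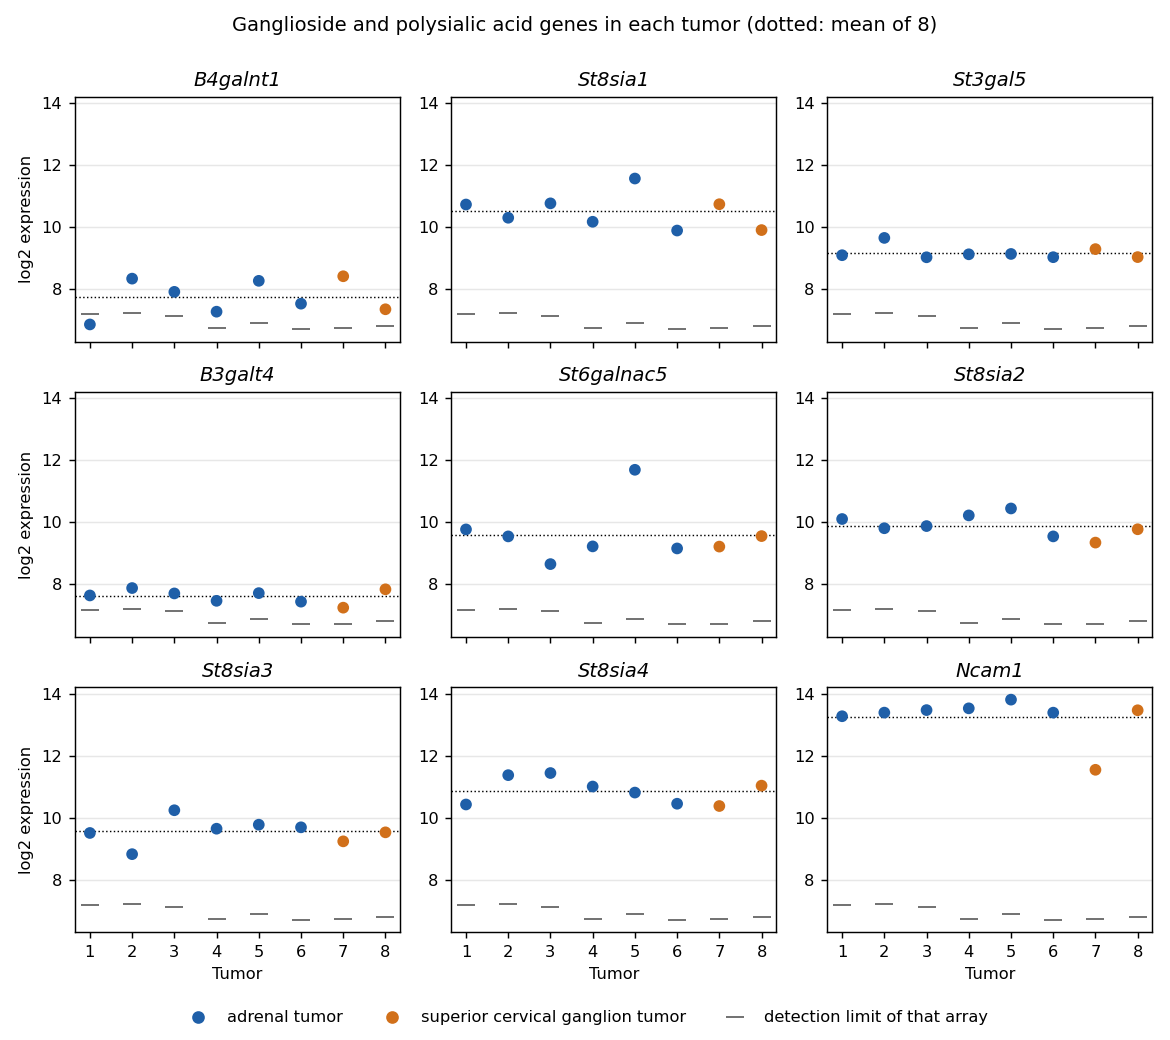
Log2 expression of the 9 genes in each tumor (1 point per tumor, colored by site), with the dotted line at the mean of the 8 tumors and the gray dashes at the detection limit of each array. St6galnac5 reached 11.69 in tumor 5, Ncam1 was 11.54 in tumor 7, and B4galnt1 probe set 1418655_at lay below the limit in tumor 1, where the gene's other probe set, not plotted, was above it.

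St3gal5, the GM3 synthase gene, was 9.17 ± 0.21 (SD, n = 8 tumors). In the adrenal tumors it ran from 9.02 to 9.65 with a median of 9.10, and it was 9.28 in tumor 7 and 9.03 in tumor 8. Tumor 2 was the highest, and the remaining adrenal tumors lay within 9.02 to 9.13, so the sites overlapped. A second St3gal5 probe set did not follow the first (r = 0.22 over the 8 tumors) and had a wider spread, with an SD of 0.50. It read 6.57 in tumor 1, below the limit, and at least 7.64 in the others, up to 8.20. Tumor 1 is the tumor with the largest gap between the 3′ and 5′ Gapdh probe sets, and the part of RNA integrity in this value was not tested.

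St8sia1, the GD3 synthase gene that opens the branch to GD2, was 10.50 ± 0.56 (SD, n = 8 tumors). The adrenal tumors ran from 9.88 in tumor 6 to 11.56 in tumor 5, with a median of 10.51, and the ganglion tumors read 10.73 and 9.90. Tumor 5 lay 0.80 above the next tumor, while both ganglion tumors fell within the adrenal range. The highest and lowest tumors differed 3.20-fold. A further pair of St8sia1 probe sets was detected in no tumor, with means of 5.83 and 5.51, and these do not bear on the gene's variation.

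B4galnt1, whose product makes GM2 and GD2, was 7.74 ± 0.57 (SD, n = 8 tumors), with adrenal values from 6.86 in tumor 1 through a median of 7.72 to 8.33 in tumor 2. The ganglion tumors were 8.41 and 7.35. Tumors 7, 2 and 5 were the high ones, and tumor 1 was the low one, 0.41 below the next. Of all genes tested, 3.31% lay at least 0.4 below every other tumor in tumor 1. The low value there stood beside the Gapdh gap of 5.51, and fibroblast and pericyte markers were highest there for 5 of 6 genes. Their part in the value was not tested. The second B4galnt1 probe set lay between 6.98 and 7.47, with an SD of 0.19, and went the other way (r = -0.45 over the 8 tumors, a description), so the differences among tumors rest on 1 probe set. The high levels of St8sia1 and B4galnt1 coincided in tumor 5, whereas tumor 2 was high for B4galnt1 (8.33) and below the mean for St8sia1 (10.30).

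Of the genes that lengthen the chain, B3galt4 was even and St6galnac5 was not. B3galt4, the GM1 synthase gene with a single probe set, was 7.62 ± 0.22 (SD, n = 8 tumors). It ran from 7.44 to 7.88 in the adrenal tumors (median 7.67) and was 7.25 in tumor 7, the lowest, and 7.84 in tumor 8. St6galnac5, which makes the α-series gangliosides, ran in the adrenal tumors from 8.65 in tumor 3 to 11.69 in tumor 5, with a median of 9.38, and read 9.22 and 9.55 in the ganglion tumors. Tumor 5 stood alone: it was 1.92 above the next tumor and 5.24-fold above the mean of the other 7 tumors, which was 9.30 ± 0.37 (SD, n = 7).

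All 3 St6galnac5 probe sets gave tumor 5 as the highest. The second read 10.50 there against 7.53 to 8.85 elsewhere, and it followed the first closely (r = 0.97 over the 8 tumors). The third was 7.70 in tumor 5, against 6.35 to 7.19 elsewhere, with detection in 2 tumors. St6galnac5 was 1 of 19 genes (0.117% of those tested) that lay at least 1 above every other tumor in tumor 5. Markers of the stroma were low in this tumor. Fibroblast and pericyte markers were lowest in tumor 5 for 5 of 6 genes, with a centred mean of -1.35 against -0.26 to 1.00 in the others, and endothelial markers were lowest for 4 of 5, with -0.78 against -0.26 to 0.54. Their part in the St6galnac5 and St8sia1 values was not tested.

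**Figure D2:**
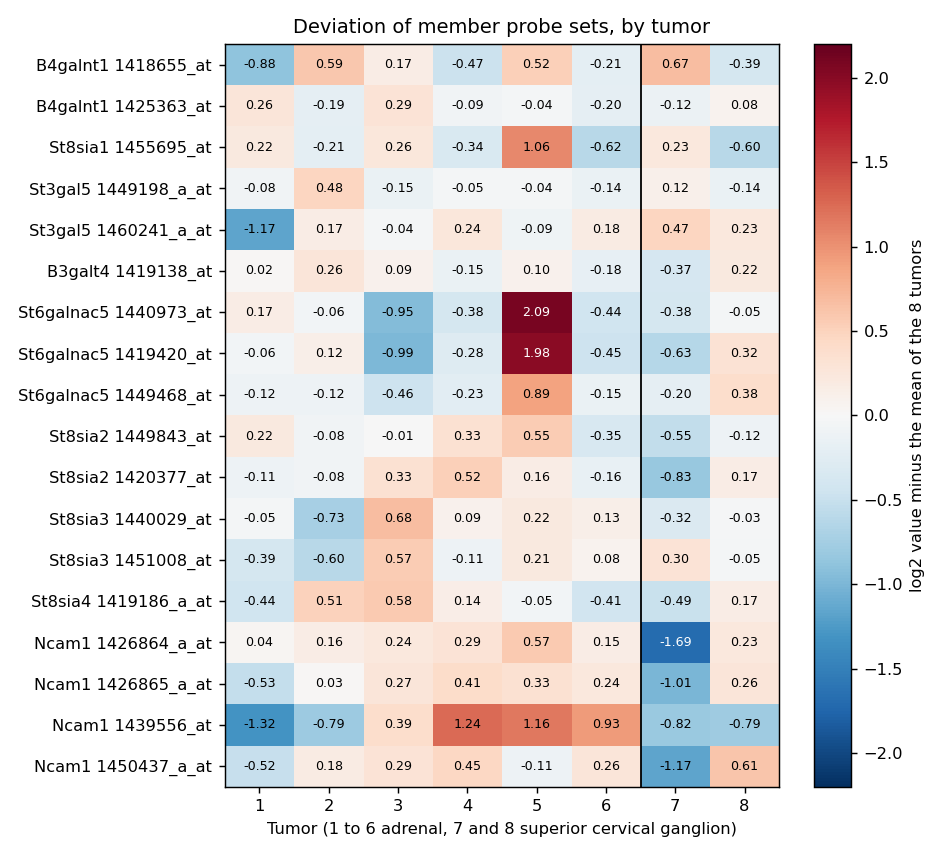
Deviation of each probe set from its mean over the 8 tumors, on the log2 scale, for the 18 member probe sets detected in at least 2 tumors (rows; columns are tumors, the vertical line parts the sites, red is above and blue below the mean). The St6galnac5 rows are red in tumor 5 (2.09, 1.98 and 0.89), and 3 of the 4 Ncam1 rows have their lowest value in tumor 7.

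Both polysialyltransferase genes were expressed in all tumors. Their promoter sequences are shown because the pair makes the same product, together with that of St8sia1, an enzyme gene of the same family from the ganglioside branch. From the RefSeq-based table for build GRCm38.p6, windows of 5 of the 9 genes were used, and none of B4galnt1, St6galnac5, St8sia3 and Ncam1. The search for these genes skipped a chromosome, so a missing window need not mean a missing entry. The 250 bases before the annotated start are given 5′ to 3′ on the gene's strand, with the GC box letters GGGCGG, in either orientation, in capitals. St8sia2 lies on the minus strand at chr7:74013683-74013932, St8sia4 on the minus strand at chr1:95667595-95667844 and St8sia1 on the minus strand at chr6:142964453-142964702.
St8sia2: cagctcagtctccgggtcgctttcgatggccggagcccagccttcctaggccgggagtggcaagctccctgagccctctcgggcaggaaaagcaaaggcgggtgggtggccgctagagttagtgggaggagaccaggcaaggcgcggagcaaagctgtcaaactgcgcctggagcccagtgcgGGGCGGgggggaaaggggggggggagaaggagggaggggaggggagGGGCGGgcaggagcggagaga
St8sia4: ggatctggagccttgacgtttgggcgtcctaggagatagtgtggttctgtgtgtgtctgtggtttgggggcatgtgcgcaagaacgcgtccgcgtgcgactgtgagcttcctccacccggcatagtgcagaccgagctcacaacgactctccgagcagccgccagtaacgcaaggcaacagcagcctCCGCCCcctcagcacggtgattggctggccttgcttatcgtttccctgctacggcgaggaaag
St8sia1: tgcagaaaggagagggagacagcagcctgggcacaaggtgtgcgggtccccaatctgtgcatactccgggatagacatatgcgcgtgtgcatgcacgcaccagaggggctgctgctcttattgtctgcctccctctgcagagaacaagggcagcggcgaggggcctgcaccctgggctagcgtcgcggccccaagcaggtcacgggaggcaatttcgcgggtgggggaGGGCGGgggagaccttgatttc
The E-box letters CACGTG, which MYC family proteins bind, were in none of the 5 promoters searched (St8sia1, St3gal5, B3galt4, St8sia2 and St8sia4), and in 6.02% of 32851 windows of this length in the table. GGGCGG or its reverse complement was in all 5, against 32.7% of windows, with 2 matches in St8sia2 and 1 each in St8sia4 and St8sia1. The stretches were rich in G and C, with 68.8% in St8sia2, 60.4% in St8sia4 and 63.6% in St8sia1 against a median of 52.4%. TATAAA was in none of the 5, against 12.4% of windows. CCAAT or its reverse complement was in St8sia1, St3gal5 and St8sia4 but not in B3galt4 and St8sia2, against 33.8% of windows. These matches describe the letters of this window and show no binding.

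St8sia2, the polysialyltransferase gene of the embryonic nervous system, was 9.89 ± 0.36 (SD, n = 8 tumors) and varied 2.14-fold. Adrenal values ran from 9.54 in tumor 6 to 10.44 in tumor 5 (median 9.99), and the ganglion tumors were 9.34 and 9.77. Tumor 7 was the lowest of the 8, 0.20 below tumor 6. The second St8sia2 probe set also placed tumor 7 lowest, at 8.76 against 9.43 to 10.11 in the others. On this probe set tumor 7 lay 0.67 below the next tumor, and 1.93-fold below the mean of the others. The probe sets differed on the highest tumor, which was tumor 5 on the first and tumor 4 on the second.

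St8sia4, the polysialyltransferase gene that persists into adult tissue, was 10.86 ± 0.42 (SD, n = 8 tumors). It ran from 10.42 in tumor 1 to 11.44 in tumor 3 in the adrenal (median 10.90) and read 10.37 and 11.03 in the ganglion tumors. Tumor 7 (10.37), tumor 1 (10.42) and tumor 6 (10.45) formed the low end together, so that no single tumor stood apart. Its second probe set was detected in no tumor (5.87 ± 0.28). St8sia3 was 9.55 ± 0.41 (SD, n = 8 tumors), from 8.82 in tumor 2 to 10.24 in tumor 3 (adrenal median 9.67), with 9.24 and 9.53 in the ganglion tumors. Both St8sia3 probe sets gave tumor 3 as highest and tumor 2 as lowest, and both were detected in all tumors. They differed in tumor 7, which was second lowest on the first and, at 9.66, second highest on the second.

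On its brightest probe set Ncam1, the carrier of polysialic acid, was high and even in 7 tumors and lower in tumor 7. Adrenal values ran from 13.27 to 13.80 with a median of 13.43. The ganglion tumors differed from one another, at 11.54 in tumor 7 and 13.46 in tumor 8, and tumor 8 lay within the adrenal range. The mean of the 7 tumors other than tumor 7 was 13.47 ± 0.17 (SD, n = 7), and tumor 7 lay 3.81-fold below it. Among all genes tested, 2.25% were at least 1 below every other tumor in tumor 7, and Ncam1 was the only one of the 9 genes among them. Tumor 7 had its lowest noradrenergic markers as well: Gata3 was 5.22 there against 11.12 to 11.80 elsewhere, and Th was 10.36 against 13.62 to 14.25. The Schwann cell marker list was also lowest in tumor 7, with a centred mean of -1.38 against -0.57 to 0.73. So was the macrophage list, with -0.65 against -0.46 to 0.44. By gene, 3 of 5 Schwann cell markers and 4 of 7 macrophage markers were lowest in tumor 7. Lymphocyte markers differed little, with 0 of 6 detected in all tumors and centred means of -0.20 to 0.20 (-0.07 in tumor 7). The part of these cell types in the Ncam1 value was not tested.

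The 7 Ncam1 probe sets differed in their pattern. Of these, 5 had their lowest value in tumor 7, although a pair of the 5 was detected in no tumor. On the second of the bright probe sets tumor 7 was 11.87, against 12.35 to 13.29 in the others, and the next lowest was tumor 1. On a dimmer one, which was detected in 6 tumors, tumor 7 read 6.28 against 6.94 to 8.06 elsewhere. The probe set 1439556_at behaved differently. It read 7.81, 8.34, 8.32 and 8.34 in tumors 1, 2, 7 and 8, and 9.52, 10.37, 10.29 and 10.06 in tumors 3, 4, 5 and 6. Tumor 8, in which the brightest Ncam1 probe set was at the level of the adrenal tumors, was thus among the low tumors on this one, and no value lay between 8.34 and 9.52. The transcripts read by 1439556_at were not determined. The plot of the Ncam1 probe sets shows both patterns.

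**Figure D3:**
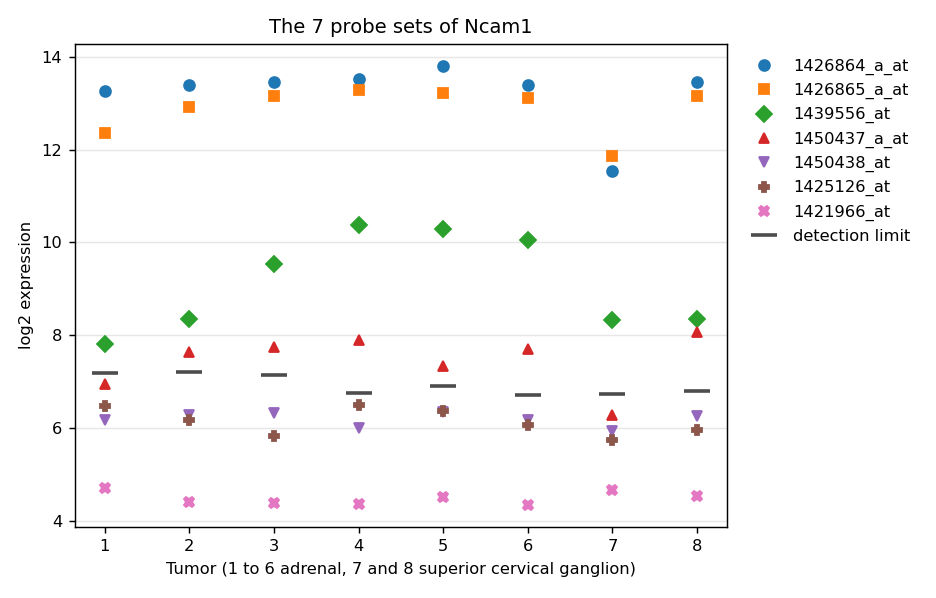
Log2 expression of the 7 Ncam1 probe sets in each tumor, with the marker shape and color giving the probe set and the black dashes the detection limit of each array. Both bright probe sets drop in tumor 7 (11.54 and 11.87), whereas 1439556_at is low in tumors 1, 2, 7 and 8.

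Site was the only grouping the labels allowed. None of the 9 genes was called different between the 6 adrenal and the 2 ganglion tumors (limma, Benjamini-Hochberg adjusted p = 0.903 to 0.997, against 1 of the 9 at an unadjusted p under 0.05). Over all 16254 genes tested, 761 (4.68%) passed unadjusted, and 3 (0.0185%) passed at an adjusted p of 0.05. The 3 genes, Acta1 and Tnnt3, which encode skeletal muscle proteins, and Clvs2, were higher in the ganglion tumors. Tnnt3 lay below the detection limit in every tumor. The median difference of the 9 genes was -0.23 on the log2 scale, against -0.03 over all genes, and 8 of the 9 were lower in the ganglion tumors, as were 55.2% of all genes. In none of the 9 did the sites fail to overlap, against 4.42% of all genes.

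The largest difference was that of Ncam1, at -0.97 ± 0.41 (SE) on the log2 scale, with a 95% interval of -1.89 to -0.05 (limma, unadjusted p = 0.0417, adjusted p = 0.903). It rested on tumor 7. Without tumor 8, Ncam1 was 1.93 lower in tumor 7 than in the adrenal tumors on the log2 scale (limma difference -1.93, adjusted p = 0.00278), in a fit that assumes that a lone tumor varies like the adrenal ones. In that fit 5.87% of all genes passed, and Ncam1 was the only one of the 9 genes that did. Without tumor 7, the difference was -0.01 (limma adjusted p = 1.0), in a fit that called 0.0493% of all genes. For St8sia2 the difference was -0.44 with an interval of -0.99 to 0.11, and for St8sia4 it was -0.21 with an interval of -0.94 to 0.51. St8sia3 differed by -0.23 (-0.94 to 0.47). The St8sia1 difference was -0.25 (-1.19 to 0.69), that of B4galnt1 was 0.19 (-0.79 to 1.16) and that of St6galnac5 was -0.29 (-1.80 to 1.23). For St3gal5 the interval was -0.45 to 0.42, and for B3galt4 it was -0.53 to 0.33.

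**Figure D4:**
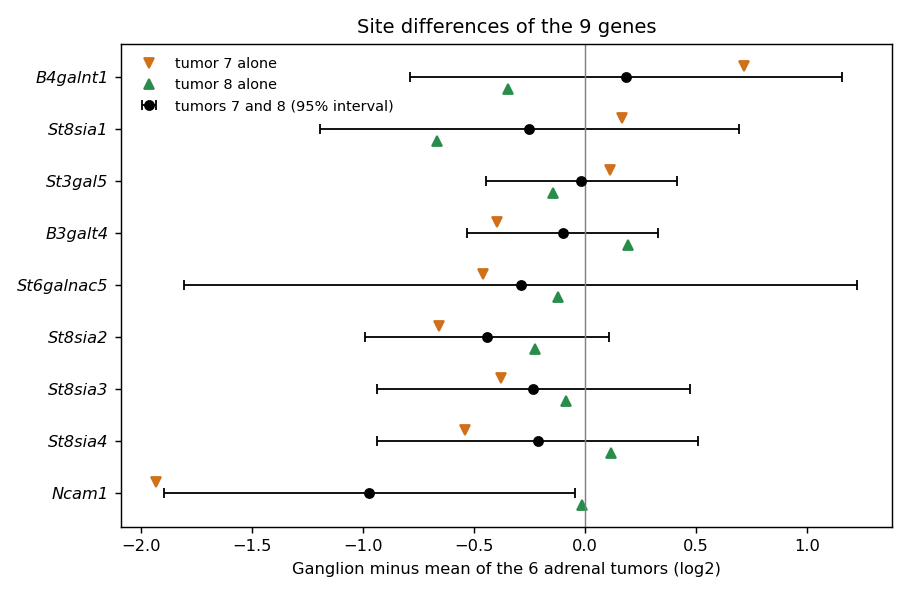
Difference of the ganglion tumors from the mean of the 6 adrenal tumors for each of the 9 genes, on the log2 scale; black points use tumors 7 and 8 with the 95% interval of limma, orange triangles tumor 7 alone and green triangles tumor 8 alone. For Ncam1 the value is -1.93 with tumor 7 and -0.01 with tumor 8.

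The genes around this pathway were described by 6 lists of 71 genes in all, of which 67 had a named probe set and 66 were tested. None passed in the site comparison (limma, adjusted p), and 5 of 66 (7.58%) passed unadjusted, against 4.68% of all genes. These were St6galnac4, A4galt and Nans, which were higher in the ganglion tumors, and Ugt8a and Casd1, which were lower. The median difference of the 66 genes was -0.05. Of 10 further sialyltransferase genes of the ganglioside series, 4 were detected in all tumors and St3gal1 in none. St6galnac4, which sialylates mucin-type sugars and gangliosides, read 9.31 in tumor 7 against 7.09 to 7.54 in the rest, with detection in 7 tumors (difference 1.09, unadjusted p = 0.0172, adjusted p = 0.903 by limma). In tumor 7, St6galnac4 thus lay above every other tumor while St6galnac5 (9.22) lay within their range. St6galnac3 was 6.82 ± 0.48 and detected in 4 tumors.

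Genes that supply lactosylceramide were broadly expressed, with 13 of 15 detected in all tumors and Sptlc3 and Sptssb in none. Ugcg, which makes glucosylceramide and so starts the pathway, was 9.76 and 9.75 in tumors 1 and 2, 9.33 and 9.54 in tumors 7 and 8, and 8.72 to 9.03 in tumors 3 to 6. Kdsr, of sphingoid base synthesis, ran from 8.28 in tumor 1 to 9.32 in tumor 7. The list's median site difference was -0.015. Of 7 genes of competing glycosphingolipid branches, 4 were detected in all tumors and Gal3st1 and Gbgt1 in none. B3gnt5, which draws lactosylceramide into the lacto series, read 7.34 in tumor 3 against 8.45 to 9.68 elsewhere. Ugt8a, which makes galactosylceramide, read 8.10 in tumor 7 against 9.22 to 10.13 elsewhere. A4galt, the globoside branch enzyme, was detected in tumor 7 alone, at 6.86.

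Genes that supply CMP-sialic acid, the donor for all sialyltransferases, or that modify sialic acid made up a list of 10, of which 8 were detected in all tumors. Npl, a sialic acid lyase, was 7.87 ± 0.50 (SD, n = 8 tumors). Casd1, which O-acetylates sialic acid and acts on gangliosides, read 11.01 in tumor 7 against 11.79 to 12.33 elsewhere. Nans, of sialic acid synthesis, was 9.74 and 9.66 in the ganglion tumors and 9.02 to 9.48 in the adrenal ones. The sites thus did not overlap, as for 4.42% of all genes, and Nans was not the only listed gene without overlap. Its difference of 0.42 did not pass (limma adjusted p = 0.903). Among 12 named genes of ganglioside breakdown, 8 were detected in all tumors and Neu2 and Neu3, which encode sialidases, in none. Galc, the galactosylceramidase gene, had the highest SD of this list. It was 5.31 and 4.99 in adrenal tumors 4 and 6, where it was not detected, and 7.49 to 8.49 in the other 6 tumors. Neu1 was 7.92 ± 0.34 (SD, n = 8 tumors).

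Of 13 NCAM1 partners and further polysialic acid carriers, 11 were detected in all tumors, and 8 had their lowest value in tumor 7, as had 26.4% of all genes. Ncam2, the paralog of Ncam1, read 9.10 in tumor 7 against 9.84 to 12.01 elsewhere, with tumors 1 and 2 the next lowest. Chl1, an L1 family adhesion gene, was lowest in tumor 3 at 9.51 and highest in tumor 2 at 11.98. Ccr7, a chemokine receptor gene whose product can carry polysialic acid, was detected in no tumor. The list's median site difference was -0.27, with 0 of 13 genes called. Of the 9 genes of synthesis, 4 (44.4%) were lowest in tumor 7: B3galt4, St8sia2, St8sia4 and Ncam1. St8sia1, St6galnac5, St8sia2 and Ncam1, also 4 of the 9, were highest in tumor 5, as were 10.8% of all genes.

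**Figure D5:**
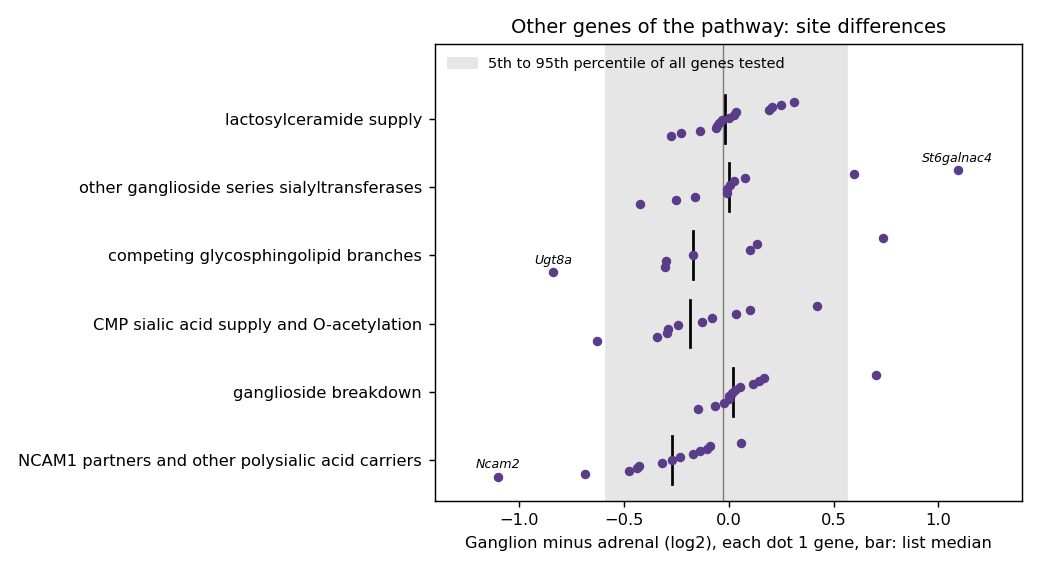
Difference between the ganglion and adrenal tumors (log2) for the genes of the 6 pathway lists, 1 dot per gene with the list median as a bar, over the band from the 5th to the 95th percentile of all genes tested. St6galnac4 (1.09) and Ncam2 (-1.10) lie farthest out, and no gene passed the adjusted test.

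The genes whose pattern over the 8 tumors was most like each of the 9 were listed by Pearson r among all genes tested, as a description. The 8 tumors share their normalization, and with 16254 genes the first gene reached an r of 0.9366 or more for each of the 9. For St6galnac5 these were Abca3 (r = 0.98), Mast3 and Mb, of which 2 remained among the 3 without tumor 7 and 0 when Spearman's rho was used. For Ncam1 they were Oprl1 (r = 1.00), Rnf215 and Fxyd6, of which none was in the list without tumor 7. For B4galnt1 they were Tenm4 (r = 0.97), Rgmb and Dpf1, for St8sia1 Lrrc23 (r = 0.96), D630045J12Rik and Mios, and for St3gal5 Bcs1l (r = 0.97), Gm7967 and Rbm24. For B3galt4 they were Cacng5 (r = 0.97), Smcp and Tulp1, and for St8sia2 Atxn7l1 (r = 0.97), Rnf121 and Osbpl10. For St8sia3 they were Zfp334 (r = 0.96), Naa35 and Cul4b, and for St8sia4 Ceacam9 (r = 0.94), 2900052L18Rik and Elk1. Of the genes named here, Smcp, Tulp1, Ceacam9 and 2900052L18Rik were detected in no tumor. Lrrc23 and Gm7967 were detected in 1 tumor each and Rbm24 in 2. Except for St6galnac5, at most 1 of the 3 remained when tumor 7 was left out.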

How the data were processed

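RNA from 8 tumors was measured on Affymetrix mouse arrays. The authors deposited log2 values, background-corrected, normalized between arrays and summarized per probe set. Per the labels, Partek 6.6 and RMA were used. The study's Methods give gcRMA instead, and it was not settled which of these made the values. No 2 arrays were identical.

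Genes were named from the platform annotation, with symbols updated through Entrez identifiers. A single gene was given for 34958 of 45101 probe sets, several genes for 932 and none for 9211. The probe set with the highest mean stood for each gene, as in the Methods, and testing was limited to the 16254 genes that exceeded log2 5 in 2 or more tumors. The site comparison used lmFit and eBayes of limma 3.58.1 (R 4.3.3), tested on simulated data, with Benjamini-Hochberg adjustment over all genes and a threshold of 0.05. Python 3.11.15 (pandas 2.3.3, numpy 2.4.6, scipy 1.17.1) gave the remaining values, and matplotlib 3.10.9 the plots. Precision is limited by the number of arrays.

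The genes, lists and markers were chosen with earlier results of these data known. Named genes are the 9 genes, and of each list those called, the 2 with the highest SD and those detected nowhere, beside the 3 genes most like each of the 9. Acta1, Tnnt3, Clvs2, A4galt, Nans, Gata3 and Th were named after their values were seen. Alternatives covered normalization, filter, choice of probe set, test settings, the limit for detection and leaving out each tumor. The fit without tumors 6 and 7 was chosen after seeing the data. Of the listed genes, 9 without a named probe set are not analysed here.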

Additional observations from a re-analysis of the deposited data

Results flagged for a closer look

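The highest and lowest tumors of each probe set were tested with Dixon's criterion, over the 6 adrenal tumors and over all 8. Of 48 sets of values from 24 probe sets, 11 passed, and chance alone passes about 1 in 20 independent sets. These sets are not independent, because the adrenal tumors are in both and several probe sets read the same gene. The 11 therefore cannot be set against that share. Of the 11 passes, 5 concerned tumor 5, all on St6galnac5 probe sets, 3 tumor 1, 2 tumor 2 and 1 tumor 7. No explanation was tested for any of them.

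St6galnac5 stood out in tumor 5 on all 3 probe sets over the adrenal tumors, and on 1440973_at and 1419420_at over all 8 as well. The gap to the next tumor, as a share of the range, was 0.632 for 1440973_at over the adrenal tumors and 0.632 over all 8 tumors. It was 0.625 and 0.557 for 1419420_at, and 0.748 for 1449468_at over the adrenal tumors. Over all 8 tumors 1449468_at did not pass, and this probe set was detected in only 2 tumors. Ncam1 stood out in tumor 7 on 1426864_a_at, with a share of 0.764 over all 8 tumors (11.54, nearest 13.27).

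St3gal5 stood out in tumor 2 on 1449198_a_at, where the level was 9.65 and the shares were 0.828 over the adrenal tumors and 0.578 over all 8. On 1460241_a_at St3gal5 stood out in tumor 1 instead, where it was low at 6.57, with shares of 0.763 and 0.658. The St8sia1 probe set 1419695_at stood out in tumor 1 with a share of 0.585 over all 8 tumors, at 6.89, although it was detected in no tumor.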

How the results depend on the processing

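In the site comparison 3 genes were called, and 1 with the filter at the receptor-based limit, 6 with the mean of all probe sets, 9 without tumors 6 and 7 and 2 to 951 with each tumor left out in turn (951 without tumor 8, 8 without tumor 7, 2 or 3 without an adrenal tumor). Differences changed sign for B4galnt1 without tumors 6 and 7 (-0.38) and in the range over tumors left out in turn (-0.35 to 0.72), and in that range for St8sia1 (-0.67 to 0.17) and St6galnac5 (-0.49 to 0.12, the positive value without tumor 5). They also did for St3gal5 with the mean of all probe sets (0.23), with array weights (0.031), without tumor 2 (0.08) and in that range (-0.14 to 0.11), for B3galt4 without tumors 6 and 7 (0.16) and in that range (-0.39 to 0.20), and for St8sia4 without tumors 6 and 7 (0.023) and in that range (-0.54 to 0.12). St8sia2 (-0.66 to -0.23), St8sia3 (-0.39 to -0.09) and Ncam1 (-1.93 to -0.01) kept their sign, and Ncam1 was called without tumor 8 only. With the mean of all probe sets the level was 7.28 for St8sia1, 8.45 for St3gal5, 8.31 for St6galnac5, 8.37 for St8sia4 and 8.50 for Ncam1. These levels are lower by calculation, because the mean takes in each gene's dimmer probe sets, such as those of St8sia1 at 5.83 and 5.51. The cause of the sign changes was not tested. With 2 ganglion tumors that differ from one another, small site differences could not be resolved. No paired analysis was possible because the replicate numbers were given in accession order and pair no tumors.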
